A study of Homo sapiens with 12 samples.

Results

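The genes described here are 6 members of the machinery of proteolysis at the cell surface and its inhibitors, out of 30225 genes in the table: the plasminogen activators PLAU and PLAT, the urokinase receptor PLAUR, and the tissue inhibitors of metalloproteinases TIMP1, TIMP2 and TIMP3. They were taken by gene name, and all 6 reached the level at which genes were tested. The cells were PC9, an established human lung adenocarcinoma line that carries an activating mutation of EGFR. Every library came from cells under 300 nM gefitinib, an inhibitor of that kinase, and no library without the drug was compared. AGR2, a protein of the endoplasmic reticulum related to the disulfide isomerases, was overexpressed (AGR2-overexpressing cells, 72 h of gefitinib) or knocked down with an shRNA (AGR2-knockdown cells, 24 h of gefitinib), and each engineered population had a control at its own time. Each of the 4 groups had 3 libraries. The shRNA sequence, the expression construct, the nature of the control vectors and whether the populations were clones or pools are not stated in the labels, nor is it said that replicates were separate cultures, so that p-values measure the spread between these libraries.

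Urokinase (PLAU) and tissue plasminogen activator (PLAT) are secreted serine proteases that cleave plasminogen to plasmin, a broad protease that digests fibrin and matrix and activates several metalloproteinases. PLAUR, anchored to the membrane by a glycolipid, holds urokinase at the cell surface. The TIMPs bind the catalytic site of metalloproteinases. TIMP3 stays bound to the extracellular matrix and also inhibits ADAM17, TIMP2 takes part in the activation of pro-MMP2 by MMP14 as well as inhibiting metalloproteinases, and TIMP1 is a soluble inhibitor.

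Abundances were in TPM, transcript levels per length that sum to 1000000 in each library and keep no read depth. AGR2 stood at 11.2 ± 0.808 TPM in overexpressing cells, against 8.11 ± 0.481 TPM in the 72 h controls, and at 0.673 ± 0.0893 TPM in knockdown cells, against 31.9 ± 0.868 TPM in the 24 h controls (SD, n = 3 each). Epithelial markers were present (7 of 10 reached 1 TPM), but NAPSA and SFTPB stayed below 1 TPM in every library and SFTPC was not listed. Of the leukocyte markers PTPRC and ITGAM stayed below 1 TPM and CD3E was not listed. All 5 endothelial markers stayed below 1 TPM, and their summed level ran from 0.175 to 1.25 TPM. Summed epithelial markers were 7480 to 9480 TPM in overexpressing cells, 5564 to 5965 TPM in the 72 h controls, 2824 to 3064 TPM in knockdown cells and 5742 to 7325 TPM in the 24 h controls. The summed leukocyte list, of which only CD68 and CD14 reached 1 TPM, was 61.2 to 71.0 TPM in overexpressing cells, 110 to 112 TPM in the 72 h controls, 126 to 153 TPM in knockdown cells and 49.8 to 61.8 TPM in the 24 h controls. Summed fibroblast markers, of which 4 of 8 were listed and 1 reached 1 TPM, were 6.37 to 6.49 TPM in overexpressing cells, 7.92 to 8.73 TPM in the 72 h controls, 4.82 to 5.34 TPM in knockdown cells and 3.61 to 4.43 TPM in the 24 h controls. The part of these markers in the results was not tested. In such bulk RNA, fewer cells making a transcript and less of it per cell cannot be told apart. Differences are on the log2(TPM + 1) scale, which understates the change of low genes, and rose and fell are used of genes that passed limma's moderated test at a Benjamini-Hochberg adjusted p below 0.05 over 15721 genes. The median tested gene was itself shifted, by 0.35 in the knockdown, 0.025 in the overexpression and 0.30 between the controls. Mitochondrial transcripts took 36.2 to 37.1% of TPM in knockdown libraries and 42.6 to 46.5% in the 24 h controls. They took 41.06 to 42.75% in the 72 h controls, and 37.3, 47.4 and 45.8% in overexpressing replicates 1, 2 and 3. Nuclear protein-coding genes held 29.4 to 30.9% in knockdown libraries and 23.9 to 26.8% in the 24 h controls. The part of these shares in the changes was not tested.

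Of the activators, PLAU fell and PLAT rose with overexpression, and both rose with knockdown. PLAU (ENSG00000122861, GRCh38 chromosome 10, 73909177 to 73917496, plus strand) stood at 41.1, 38.9 and 38.3 TPM in the overexpressing libraries, against 104, 101 and 104 TPM in the 72 h controls. In the knockdown libraries it stood at 147, 138 and 149 TPM, against 66.0, 64.0 and 69.2 TPM in the 24 h controls. The groups did not overlap in either comparison, and the 4 group means fell in the order knockdown, 72 h control, 24 h control and overexpression with no overlap between neighbours. PLAU fell 2.61-fold with overexpression (log2 change -1.36, SE 0.051, adjusted p = 1.97e-08 by limma) and rose 2.17-fold with knockdown (log2 change 1.11, SE 0.051, adjusted p = 4.75e-08). The effects of overexpression and knockdown differed by -2.47 (SE 0.072, adjusted p = 2.40e-09 by limma). Overexpression was measured only at 72 h and knockdown only at 24 h of gefitinib. For PLAU and each gene below, this difference mixes several things that cannot be told apart. These are the direction and size of the AGR2 change, how AGR2 was changed, the control population and the time under drug. AGR2 was 1.38-fold higher with overexpression and 47.5-fold lower with knockdown. At 11.2 TPM in overexpressing cells it stayed below the 24 h controls, at 31.9 TPM. With overexpression 1.54% of tested genes had a lower log2 change than PLAU, and with knockdown 9.38% had a higher one. With libraries rescaled to the median gene the rise with knockdown was 0.60, and it passed.

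PLAT (ENSG00000104368, chromosome 8, 42174718 to 42207709, minus strand) was a minor transcript in the controls. It reached 13.0, 14.6 and 14.5 TPM in the overexpressing libraries, against 5.06, 5.12 and 5.16 TPM in the 72 h controls. In the knockdown libraries it reached 2.38, 2.33 and 2.23 TPM, against 1.05, 0.965 and 1.04 TPM in the 24 h controls. Every engineered library was thus above every control of its time, and the group means ran without overlap from overexpression through the 72 h controls and the knockdown to the 24 h controls. PLAT rose 2.74-fold with overexpression (log2 change 1.29, SE 0.052, adjusted p = 3.01e-08 by limma) and 2.28-fold with knockdown (log2 change 0.72, SE 0.052, adjusted p = 9.13e-07). The PLAT change with knockdown passed but was smaller, at 0.42, with libraries rescaled to the median gene or quantile-normalised, and at 0.21 with library trends on transcript length and GC content removed. With 0.1 in place of 1 TPM added before the logarithm it was 1.11. The rise on the log2(TPM + 1) scale was larger with overexpression by 0.58 (SE 0.073, adjusted p = 5.24e-05 by limma). This difference was 0.83 with rescaled libraries, 1.14 with those trends removed and 0.32 with 0.1 TPM added, and passed in each. As a share of the summed TPM of both activators PLAT held 26.2% ± 1.89 in overexpressing cells and 4.72% ± 0.0905 in the 72 h controls (SD, n = 3). In knockdown cells it held 1.58% ± 0.0938, against 1.51% ± 0.0450 in the 24 h controls, and these library shares overlapped.

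**Figure D1:**
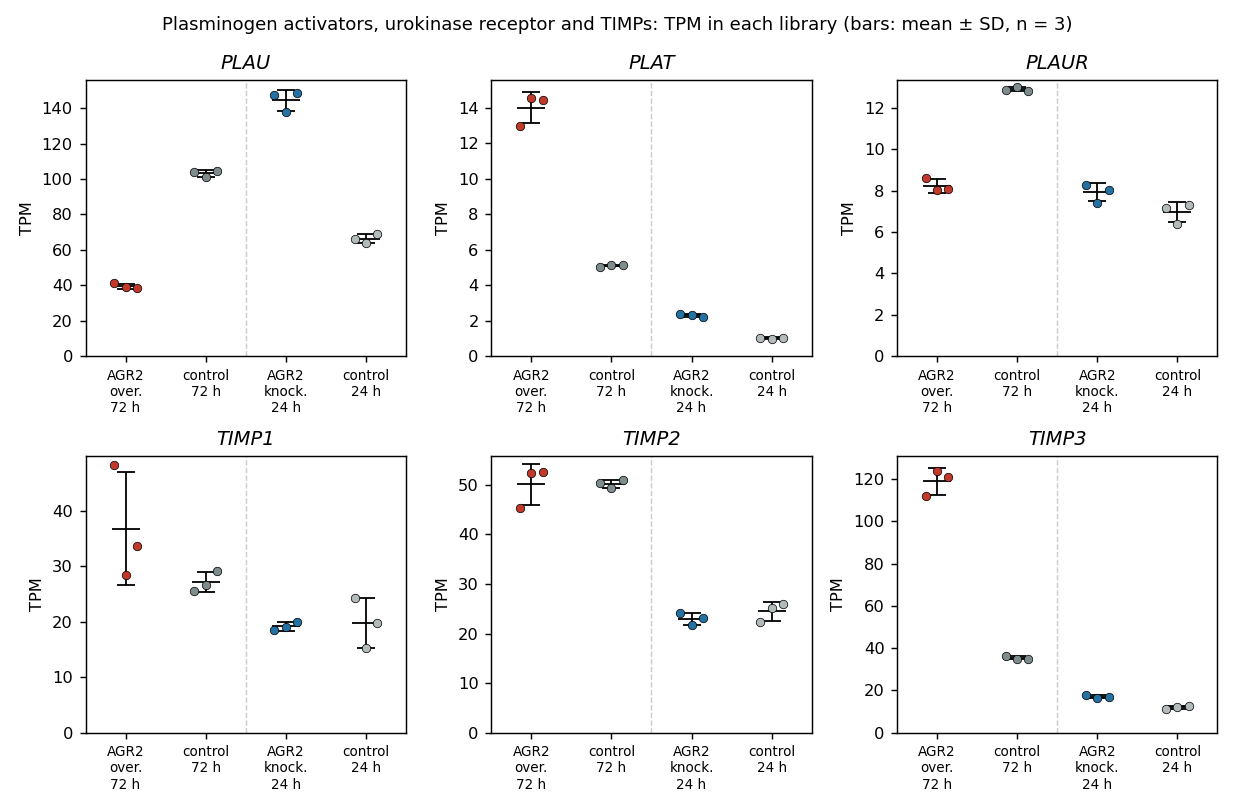
TPM of each of the 6 genes in each of the 12 libraries, on linear axes from 0, with dots for libraries and bars for the mean ± SD (n = 3). PLAU is highest in knockdown cells (138 to 149 TPM) and lowest in overexpressing cells (38.3 to 41.1 TPM), while PLAT and TIMP3 are highest in overexpressing cells, and TIMP1 has 1 high library each in overexpressing cells (48.2 TPM) and 24 h controls (24.3 TPM).

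PLAUR (ENSG00000011422, chromosome 19, 43646095 to 43670547, minus strand), the receptor of urokinase, fell with overexpression. It stood at 8.60, 8.02 and 8.07 TPM in the overexpressing libraries, against 12.9, 13.0 and 12.8 TPM in the 72 h controls (log2 change -0.59, SE 0.058, adjusted p = 1.34e-05 by limma). In knockdown it stood at 8.27, 7.43 and 8.05 TPM, against 7.14, 6.41 and 7.31 TPM in the 24 h controls. These knockdown and control libraries did not overlap as deposited (log2 change 0.17, SE 0.058, adjusted p = 0.0281 by limma), but with libraries rescaled to the median gene the change was -0.29 (adjusted p = 0.00264), so its direction with knockdown rests on the scaling. It was also lost in a fit of the 6 compared libraries alone (adjusted p = 0.0915 by limma) and without replicate 2 of the 24 h controls (0.0991) or knockdown replicate 1 (0.101) or 3 (0.0795). The difference between the overexpression and knockdown effects was -0.76 (SE 0.082, adjusted p = 1.67e-05 by limma), with -0.34 (adjusted p = 0.0065) after rescaling. The overexpressing and knockdown libraries overlapped in PLAUR level.

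The sequences before the starts of PLAU and PLAUR, which fell together with overexpression, and of TIMP3, which rose, are given for comparison, as 250 bases on the coding strand up to the RefSeq start (RefSeq, build GRCh38.p14). PLAU has 2 starts in that table, of which the downstream one at 73911132 is used, close to the starts of the full-length coding transcripts of GENCODE 29. Capitals mark matches to any of 4 short motifs on either strand, with overlapping matches all counted. The AP-1 site, bound by FOS and JUN proteins, was searched as TGANTCA. The GC box, bound by SP1 and its relatives, was searched as GGGCGG. The TATA box of core promoters was searched as TATAAA. The box bound by the NF-Y complex was searched as CCAAT.
PLAU, chr10:73910882-73911131, plus strand: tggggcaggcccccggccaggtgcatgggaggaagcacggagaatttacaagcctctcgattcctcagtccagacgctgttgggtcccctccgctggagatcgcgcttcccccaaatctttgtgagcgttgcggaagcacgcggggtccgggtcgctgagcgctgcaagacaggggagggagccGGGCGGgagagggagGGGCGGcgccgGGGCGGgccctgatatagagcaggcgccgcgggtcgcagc
PLAUR, chr19:43670170-43670419, minus strand: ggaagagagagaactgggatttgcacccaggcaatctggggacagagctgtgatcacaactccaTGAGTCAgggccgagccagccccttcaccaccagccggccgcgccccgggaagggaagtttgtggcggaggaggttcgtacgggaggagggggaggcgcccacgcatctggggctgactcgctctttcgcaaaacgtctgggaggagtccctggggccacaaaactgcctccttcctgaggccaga
TIMP3, chr22:32801455-32801704, plus strand: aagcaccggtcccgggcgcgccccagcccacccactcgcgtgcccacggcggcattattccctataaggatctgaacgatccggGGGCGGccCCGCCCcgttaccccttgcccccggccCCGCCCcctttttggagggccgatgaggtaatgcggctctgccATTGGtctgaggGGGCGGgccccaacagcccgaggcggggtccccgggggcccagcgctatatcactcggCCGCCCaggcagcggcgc
PLAU held 3 GC boxes within 66 bases of the start, and PLAUR held none. The single AP-1 match of the 3 windows, TGAGTCA, lay 186 bases before the start of PLAUR. TIMP3 held 5 GC boxes and 1 CCAAT box, and none of the 3 windows held TATAAA. Among 35116 promoter windows of the same length 6.57% held the AP-1 letters, 42.6% the GC box, 10.7% the TATA box and 32.0% the CCAAT box. The GC content was 68.8% in PLAU, 63.2% in PLAUR and 72.4% in TIMP3, against a median of 58.0% over all windows. A match describes letters in these windows and is not a measured binding site. TIMP2 and PLAT are named without sequence.

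Among the inhibitors TIMP3 had the widest range. TIMP3 (ENSG00000100234, chromosome 22, 32801705 to 32863041, plus strand) reached 112, 124 and 121 TPM in the overexpressing libraries, against 36.3, 34.9 and 35.1 TPM in the 72 h controls. In the knockdown libraries it reached 17.8, 16.6 and 16.8 TPM, against 11.3, 12.1 and 12.4 TPM in the 24 h controls. No 2 groups overlapped. TIMP3 rose 3.36-fold with overexpression (log2 change 1.72, SE 0.055, adjusted p = 9.02e-09 by limma), a change exceeded by 1.34% of tested genes. With knockdown the difference was 0.48 as deposited (SE 0.055, adjusted p = 2.57e-05 by limma) but 0.0021 with libraries rescaled to the median gene (adjusted p = 0.968) and 0.25 with libraries rescaled to the sum of nuclear protein-coding genes (adjusted p = 0.0318), so its call with knockdown rests on the scaling. The overexpression effect exceeded the knockdown effect by 1.24 (SE 0.078, adjusted p = 3.30e-07 by limma).

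TIMP2 (ENSG00000035862, chromosome 17, 78852977 to 78925387, minus strand) gave 45.4, 52.4 and 52.5 TPM in the overexpressing libraries and 50.4, 49.3 and 50.9 TPM in the 72 h controls. It gave 24.1, 21.7 and 23.1 TPM in the knockdown libraries and 22.3, 25.2 and 26.0 TPM in the 24 h controls. The engineered libraries overlapped their controls in both comparisons, with log2 changes of -0.0068 (SE 0.074, adjusted p = 0.947 by limma) and -0.088 (SE 0.074, adjusted p = 0.324). With rescaled libraries the knockdown change was -0.58 (adjusted p = 5.34e-06), below the median gene.

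TIMP1 (ENSG00000102265, chromosome X, 47582408 to 47586789, plus strand) gave 48.2, 28.4 and 33.6 TPM in the overexpressing libraries and 25.6, 26.6 and 29.1 TPM in the 72 h controls. The knockdown libraries gave 18.4, 19.1 and 19.999 TPM and the 24 h controls 24.3, 15.2 and 19.7 TPM. Neither comparison passed, at 0.39 (SE 0.19, adjusted p = 0.101 by limma) with overexpression and -0.019 (SE 0.19, adjusted p = 0.938) with knockdown. The high libraries, replicate 1 of the overexpressing cells and of the 24 h controls, were also those of their groups lowest in long transcripts. The median of the longest eighth of transcripts less that of the shortest eighth was -0.20 in that overexpressing library, against 0.34 and 0.19 in the others, and -0.45 in that control, against -0.31 and -0.27. TIMP1 had the shortest transcript of the 6 genes, 1095 bases at most, and the part of transcript length in its scatter was not tested. The overexpression change passed only without overexpressing replicate 2 among the single libraries left out (0.56, adjusted p = 0.0309 by limma). Without both high libraries the TIMP1 change was 0.19 with overexpression (adjusted p = 0.191) and 0.14 with knockdown (adjusted p = 0.318).

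The makeup of the TIMP transcripts differed between groups. TIMP3 held 57.8% ± 3.07 of the summed TPM of TIMP1, TIMP2 and TIMP3 in overexpressing cells, against 31.4% ± 0.931 in the 72 h controls (SD, n = 3). It held 28.8% ± 0.759 in knockdown cells, against 21.3% ± 1.77 in the 24 h controls. The sum itself was 206 ± 1.37 TPM in overexpressing cells and 113 ± 2.22 TPM in the 72 h controls, and 59.2 ± 1.58 TPM in knockdown cells and 56.2 ± 3.14 TPM in the 24 h controls. All overexpressing libraries were above their controls in the TIMP sum, and the knockdown libraries, at 57.4 to 60.3 TPM, overlapped theirs, at 52.6 to 58.1 TPM.

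Read as calls over the whole group, 4 of the 6 genes passed with overexpression (2 higher and 2 lower), where 55.4% of all tested genes passed (29.9% higher and 25.5% lower). With knockdown 4 of 6 passed, all higher, against 65.6% of all tested genes (53.6% higher and 11.9% lower). The groups did not overlap for 4 of 6 genes in each comparison, against 63.1% of all genes with overexpression and 70.8% with knockdown. The difference of the 2 effects passed for 4 of 6 (2 higher and 2 lower), against 65.7% of all genes (20.1% higher and 45.6% lower). These shares lie near the background, so the number of calls says nothing particular of these genes. With rescaled libraries 2 genes were higher (PLAU and PLAT) and 2 lower (PLAUR and TIMP2) in the knockdown, against 29.4% and 29.9% of all genes.

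**Figure D2:**
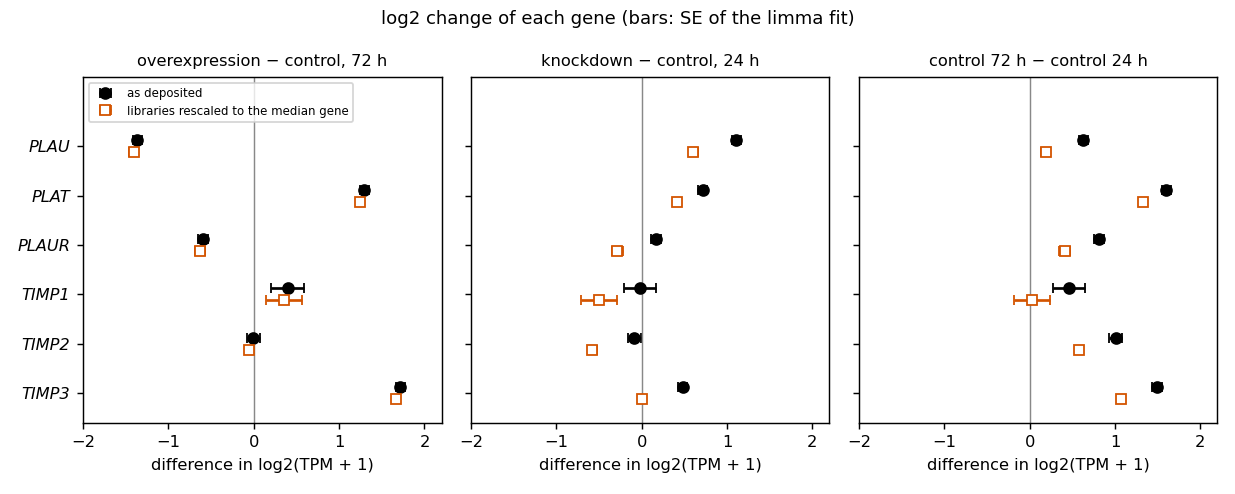
Difference in log2(TPM + 1) for each gene in 3 comparisons, as deposited (filled circles) and with libraries rescaled to the median gene (open squares), with bars for the SE of the limma fit. The overexpression values barely move with rescaling, whereas in the knockdown PLAUR changes sign (0.17 and -0.29) and TIMP3 goes to 0.0021.

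Between the controls, at 72 h against 24 h of gefitinib, 5 of the 6 genes rose, against 52.9% of all tested genes higher and 8.1% lower. For 6 of 6 the libraries did not overlap, against 69.2% of all genes. The labels do not say if both control groups carried the same vector. Time under drug and control population therefore cannot be told apart here. AGR2 itself was 3.94-fold lower in the 72 h than in the 24 h controls (log2 change -1.86, adjusted p = 7.99e-08 by limma). These controls also serve the comparisons above, so the values are set side by side and not taken as independent. PLAT was 5.03-fold higher at 72 h than at 24 h (log2 change 1.60, SE 0.052, adjusted p = 6.15e-08 by limma), a change exceeded by 0.986% of tested genes. TIMP3 was 2.96-fold higher (1.49, adjusted p = 9.36e-08), TIMP2 2.05-fold (1.01, adjusted p = 2.64e-06), PLAUR 1.86-fold (0.81, adjusted p = 2.31e-06) and PLAU 1.55-fold (0.63, adjusted p = 4.78e-06). TIMP1 did not pass as deposited (0.46, SE 0.19, adjusted p = 0.0575 by limma), and passed without replicate 1 of the 24 h controls (0.61, adjusted p = 0.0215) and when replicate 1 or 2 of the overexpressing cells was left out of the shared fit (adjusted p = 0.0179 and 0.0369). With rescaled libraries the 5 genes still passed as higher, against 27.9% of all genes higher and 26.3% lower, with PLAU at 0.19 (adjusted p = 0.0152), PLAUR at 0.41, TIMP2 at 0.58, TIMP3 at 1.07 and PLAT at 1.33.

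Ratios of 2 genes in 1 library do not depend on how that library was scaled. PLAU transcripts per PLAUR transcript numbered 4.79 ± 0.0531 in overexpressing cells and 7.99 ± 0.203 in the 72 h controls (means ± SD of 3 libraries), and 18.3 ± 0.403 in knockdown cells and 9.57 ± 0.380 in the 24 h controls. This ratio was thus lower by 0.74 on the log2 scale with overexpression and higher by 0.93 with knockdown. TIMP3 per TIMP2 was 2.38 ± 0.0804 in overexpressing cells and 0.706 ± 0.0157 in the 72 h controls, and 0.743 ± 0.0189 in knockdown cells and 0.489 ± 0.0162 in the 24 h controls, higher in both engineered populations with no overlap. PLAT per PLAU was 0.356 ± 0.0343 in overexpressing cells and 0.0496 ± 0.000997 in the 72 h controls, higher by 2.84 on the log2 scale. It was 0.0160 ± 0.000968 in knockdown cells and 0.0153 ± 0.000464 in the 24 h controls, where the libraries overlapped. TIMP3 inhibits metalloproteinases and PLAU is a serine protease, so their ratio does not set an inhibitor against its target. TIMP3 per PLAU was 3.02 ± 0.259 in overexpressing cells and 0.344 ± 0.00673 in the 72 h controls, and 0.118 ± 0.00445 in knockdown cells and 0.180 ± 0.00901 in the 24 h controls. On the log2 scale this ratio was higher by 3.13 with overexpression and differed by -0.61 with knockdown, with no overlap in either.

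**Figure D3:**
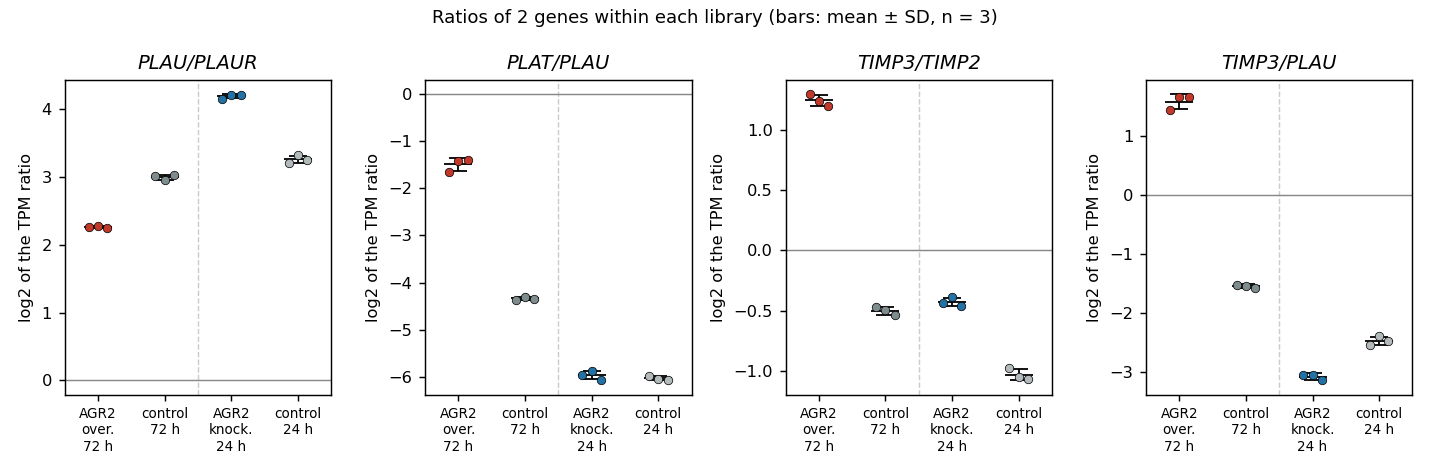
log2 of the ratio of 2 TPM values within each of the 12 libraries, with bars for the mean ± SD (n = 3) and a line at a ratio of 1. PLAU/PLAUR is lowest in overexpressing cells and highest in knockdown cells, and TIMP3/PLAU is above 1 to 1 only in overexpressing cells.

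The genes around this system were taken from 9 lists, 110 genes in all, of which 63 were tested. With overexpression 9 rose, 33 fell and 21 did not pass, where 29.9% of all tested genes were higher and 25.5% lower, and the list median was -0.25 against 0.025. With rescaled libraries these counts were 9 higher and 36 lower, against 27.8% and 28.6% of all genes. With knockdown 27 were higher, 21 lower and 15 did not pass, where 53.6% of all tested genes were higher and 11.9% lower, and the median was 0.10 against 0.35. Rescaling turned this balance to 21 higher and 34 lower, against 29.4% and 29.9% of all genes, with a list median of -0.33. In the 72 h against the 24 h controls 54 were higher and 3 lower, where 52.9% of all genes were higher and 8.1% lower, and with rescaled libraries 39 and 7, against 27.9% and 26.3%. Of the 16 list genes named by size as higher with knockdown, 15 passed as higher with rescaled libraries, but 12 had changes there more than 1.5 times smaller. Plasminogen itself (PLG) was not listed in the table, and of the collagenases and gelatinases MMP1, MMP2, MMP9 and MMP13 stayed below 1 TPM in every library.

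Of 5 tested serpins that can inhibit plasminogen activators or related proteases 0 rose and 2 fell with overexpression (median -0.15), and 3 rose and 1 fell with knockdown (median 0.74). For this list and those below, the shares over all tested genes were 29.9% higher and 25.5% lower with overexpression (median 0.025). With knockdown they were 53.6% and 11.9% (median 0.35), or 29.4% and 29.9% with rescaled libraries. The lists are small, and their counts are given as a description. SERPINE2, protease nexin 1, stood at 0.931 ± 0.119 TPM in overexpressing cells and 5.13 ± 0.0501 TPM in the 72 h controls (log2 change -1.67, adjusted p = 3.50e-08 by limma), and at 8.66 ± 0.696 TPM in knockdown cells and 3.97 ± 0.252 TPM in the 24 h controls (0.96, adjusted p = 8.20e-07, or 0.53 with rescaled libraries). It thus fell with overexpression and rose with knockdown, as PLAU did. SERPINB6, an intracellular serpin, fell with overexpression (-0.35) and rose with knockdown (0.78, rescaled 0.30), but passed in neither once library trends on transcript length and GC content were removed.

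Of 8 tested plasminogen receptors and clearance receptors 0 rose and 6 fell with overexpression (median -0.54), and 4 rose and 2 fell with knockdown (median 0.24), or 2 and 4 with rescaled libraries. S100A10, which with annexin A2 forms a plasminogen-binding complex, stood at 106 ± 15.5 TPM in overexpressing cells and 181 ± 4.13 TPM in the 72 h controls (-0.78), and at 185 ± 3.04 TPM in knockdown cells and 278 ± 18.3 TPM in the 24 h controls (-0.58, rescaled -1.09). It fell in both. Its partner ANXA2 fell with overexpression (-0.54). ENO1, a glycolytic enzyme that also binds plasminogen at the surface, fell with overexpression to 208 ± 13.0 TPM, against 301 ± 9.13 TPM in the 72 h controls (-0.53), and rose with knockdown to 569 ± 26.2 TPM, against 245 ± 13.7 TPM in the 24 h controls (1.21, rescaled 0.70). IGF2R, a receptor that binds PLAUR and plasminogen, fell with overexpression (-0.32, or -0.20 without overexpressing replicate 1), a call that was lost with the 6 compared libraries alone (adjusted p = 0.0551 by limma) and without replicate 3 of the 72 h controls (adjusted p = 0.0649 by limma).

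Among 7 tested partners of the urokinase receptor 1 rose and 4 fell with overexpression (median -0.63), and 6 rose and 0 fell with knockdown (median 0.98), or 5 and 1 with rescaled libraries. The integrin chain ITGA5 stood at 5.04 ± 0.662 TPM in overexpressing cells and 11.7 ± 0.315 TPM in the 72 h controls (-1.08), and at 11.9 ± 0.595 TPM in knockdown cells and 4.03 ± 0.443 TPM in the 24 h controls (1.36). ITGAV likewise fell with overexpression (-0.63) and rose with knockdown (0.98, rescaled 0.59). ITGA3 rose in both, by 0.42 and 1.36 (the second 0.87 when rescaled), and ITGB5 rose with knockdown (1.31). SRPX2, a secreted ligand of PLAUR, fell with overexpression to 2.94 ± 0.184 TPM, against 7.78 ± 0.293 TPM in the 72 h controls (-1.16).

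Among 6 tested matrix metalloproteinases, the targets of the TIMPs, 1 rose and 2 fell with overexpression (median -0.18). With knockdown 0 rose and 4 fell (median -0.38), or 0 and 6 with rescaled libraries. MMP14, the membrane enzyme that activates pro-MMP2, rose with overexpression to 66.8 ± 4.77 TPM, against 45.9 ± 1.30 TPM in the 72 h controls (0.53, adjusted p = 0.000158 by limma). It was 3.40-fold higher in the 72 h controls than in the 24 h controls. MMP14 stood at 13.3 ± 0.862 TPM in knockdown cells and 13.5 ± 1.10 TPM in the 24 h controls. Its change with knockdown did not pass as deposited (-0.021) but passed as lower with rescaled libraries (-0.50, adjusted p = 0.000179 by limma). Of 8 tested ADAM and ADAMTS proteases 1 rose and 5 fell with overexpression (median -0.43), and 5 rose and 0 fell with knockdown (median 0.88), or 5 and 3 with rescaled libraries. ADAMTS12 fell with overexpression to 2.84 ± 0.579 TPM, against 15.8 ± 0.203 TPM in the 72 h controls (-2.15), and rose with knockdown (0.98, rescaled 0.57). ADAM17, a sheddase that TIMP3 inhibits, rose with knockdown to 5.16 ± 0.308 TPM, against 2.32 ± 0.658 TPM in the 24 h controls (0.91). The ADAM17 change was 0.53 with rescaled libraries and 0.30 with length and GC trends removed, and passed in both. The cell-surface protease ADAM8 rose with overexpression (0.86). ADAM15 fell with overexpression (-0.36) and rose with knockdown (0.92, rescaled 0.42), and ADAM9 fell with overexpression (-0.64).

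Of 5 tested other inhibitors and activators of metalloproteinases 1 rose and 3 fell with overexpression (median -0.37), and 2 rose and 1 fell with knockdown (median -0.01), or 2 and 3 with rescaled libraries. TIMP4, the remaining TIMP, stood at 1.90 ± 0.333 TPM in overexpressing cells and 2.98 ± 0.269 TPM in the 72 h controls (-0.46), and at 6.29 ± 0.522 TPM in knockdown cells and 2.67 ± 0.275 TPM in the 24 h controls (0.99, adjusted p = 7.89e-06 by limma, or 0.59 with rescaled libraries). TIMP4 thus fell with overexpression, where TIMP3 rose. FURIN, the convertase that activates membrane metalloproteinases, fell with overexpression (-1.13) and rose with knockdown (0.92, rescaled 0.42). BSG, a metalloproteinase inducer, fell with overexpression (-0.37).

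Among 9 tested membrane and other serine proteases and Kunitz inhibitors 3 rose and 2 fell with overexpression (median 0.078). With knockdown 1 rose and 7 fell (median -0.25), or 0 and 8 with rescaled libraries. Hepsin (HPN) rose with overexpression to 9.99 ± 1.25 TPM, against 4.75 ± 0.0910 TPM in the 72 h controls (0.93). SPINT1, the Kunitz inhibitor of matriptase and hepsin, rose with it (0.69), and PRSS23 fell to 5.49 ± 0.191 TPM, against 21.7 ± 0.764 TPM in the 72 h controls (-1.81). Matriptase (ST14), which activates pro-urokinase, fell with overexpression (-0.24, or -0.37 with length and GC trends removed). With knockdown the prostasin gene PRSS8 fell to 57.6 ± 3.76 TPM, against 131 ± 20.8 TPM in the 24 h controls (-1.16), PRSS22 fell (-1.13) and PRSS23 fell (-0.38, rescaled -0.85). SPINT2 passed as higher with knockdown as deposited (0.44) and gave -0.065 with rescaled libraries.

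All 5 tested kallikreins, secreted serine proteases of epithelia, fell with knockdown (median -1.26), where 11.9% of all tested genes were lower and the median was 0.35. With overexpression 2 rose and 2 fell (median -0.1), where 29.9% of all tested genes were higher and 25.5% lower. KLK10 stood at 77.8 ± 9.10 TPM in overexpressing cells and 34.1 ± 0.666 TPM in the 72 h controls (1.16), and at 4.11 ± 0.355 TPM in knockdown cells and 23.5 ± 1.73 TPM in the 24 h controls (-2.26). KLK8 likewise rose with overexpression (0.88) and fell with knockdown (-0.98). KLK7 fell in both, by -0.47 and -1.41 on the log2 scale, KLK5 fell with knockdown (-1.26) and KLK6 fell with overexpression (-0.21). Neighbouring kallikrein genes are similar in sequence, and reads could be shared between them. Of 10 tested genes of cell-surface coagulation 0 rose and 7 fell with overexpression (median -0.73), and 6 rose and 1 fell with knockdown (median 0.30), or 4 and 3 with rescaled libraries. The knockdown count and median lie near those of all tested genes, of which 53.6% were higher with a median of 0.35. THBD, thrombomodulin, fell with overexpression (-0.86) and rose with knockdown (1.51), as did F2RL1, the protease-activated receptor PAR2 (-0.59 and 1.24, the second 0.76 when rescaled). F2RL2, the receptor PAR3, rose with knockdown to 11.7 ± 0.291 TPM, against 1.78 ± 0.0794 TPM in the 24 h controls (2.19). TFPI2, a Kunitz inhibitor of plasmin and matrix proteases, fell with knockdown to 6.60 ± 0.387 TPM, against 35.3 ± 1.53 TPM in the 24 h controls (-2.26).

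**Figure D4:**
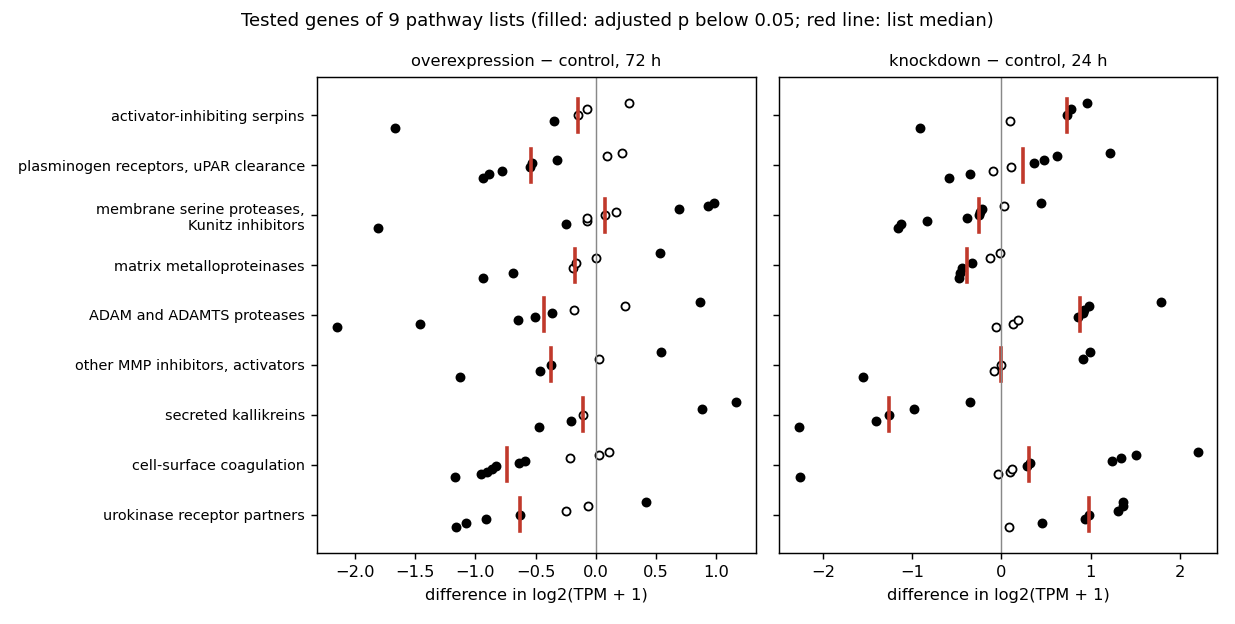
Difference in log2(TPM + 1) of each tested gene in 9 lists, for overexpression against the 72 h controls and for knockdown against the 24 h controls, with filled dots for genes at an adjusted p below 0.05 and a red line at the list median. The kallikrein median lies at -1.26 in the knockdown and at -0.10 with overexpression, and the leftmost dot with overexpression is ADAMTS12 at -2.15.

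In the control comparison the genes named by size in these lists were all higher at 72 h than at 24 h, in 17 of 17 cases. They were picked by size from lists in which 54 genes were higher and 3 lower. Over all tested genes 52.9% were higher and 8.1% lower. The 3 list genes that were lower at 72 h are named after their values were seen. They were MMP7 (-0.68, adjusted p = 9.54e-05 by limma), S100A10 (-0.61, adjusted p = 0.000211) and ANXA2 (-0.39, adjusted p = 0.00133). MMP7 was at most 1.58 TPM in any library. ADAMTS12 was higher by 2.04, THBD by 2.09, TFPI2 by 1.92, MMP14 by 1.70, IGF2R by 1.41, ITGA5 by 1.34, ITGA3 by 1.31, MMP15 by 1.28, ADAM17 by 1.24 and LRP1 by 1.13 on the log2(TPM + 1) scale. FURIN (0.98), ST14 (0.90), KLK7 (0.88), PRSS23 (0.83) and KLK5 (0.78) were higher as well. These 15 passed as higher with rescaled libraries, where FURIN gave 0.55, ST14 0.47, KLK7 0.45, PRSS23 0.41 and KLK5 0.34. With length and GC trends removed they passed too, with ADAM17 at 0.75, ITGA3 at 0.74, ITGA5 at 0.82, IGF2R at 0.72, MMP15 at 0.71, FURIN at 0.48, LRP1 at 0.43, ST14 at 0.39 and PRSS23 at 0.36. BSG was higher by 0.52 and SERPINE2 by 0.30 as deposited, but with rescaled libraries BSG gave 0.072 and SERPINE2 -0.065, and neither passed. BSG did pass with libraries rescaled to the sum of nuclear protein-coding genes (0.25), quantile-normalised (0.42) or with length and GC trends removed (0.27). SERPINE2 passed in none of these.

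Genes with the most similar profile over the 12 libraries were found by the root mean square difference of log2(TPM + 1) centred on each gene, as a description. For PLAU these were MAP4K4 (0.0816), TUBB (0.0873) and HSPA8 (0.123). MAP4K4 is a low gene, at 0.900 ± 0.105 TPM in overexpressing cells and 4.18 ± 0.194 TPM in the 72 h controls. Its fall was 4.65-fold, against 2.61-fold for PLAU, and the log2(TPM + 1) scale understates the change of low genes. TUBB, a beta-tubulin, stood at 393 ± 24.6 TPM in overexpressing cells and 903 ± 12.4 TPM in the 72 h controls, and at 1272 ± 25.5 TPM in knockdown cells and 612 ± 29.9 TPM in the 24 h controls. For PLAT the nearest was the phosphatase gene DUSP5 (0.0986), at 28.5 ± 0.541 TPM in overexpressing cells and 10.2 ± 0.160 TPM in the 72 h controls, and 6.00 ± 0.294 TPM in knockdown cells and 3.00 ± 0.291 TPM in the 24 h controls. TIMP3 (0.208) and BTG2 (0.294) followed. For TIMP3 the nearest were PLAT (0.208), BTG2 (0.224) and DUSP5 (0.234), so that PLAT and TIMP3 were each among the 3 nearest to the other. TIMP2 was nearest to EEIG1 (0.0528), CDH1 (0.0674) and TNFRSF21 (0.0718). Centred profiles share the scaling of each library, and PLAUR and TIMP1, with group means less than 1 apart on the log2 scale, were not matched.

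Genes on the other strand overlap several of these loci. C10orf55 shares 916 exonic bases with PLAU in GENCODE 29 and was listed at 0.236 to 0.911 TPM, against 38.3 to 149 TPM for PLAU. SYN1 and SYN3 span TIMP1 and TIMP3 without sharing exonic bases, and SYN3 was at most 0.0932 TPM. The antisense gene AC022966.1 shares 367 exonic bases with TIMP2, and CEP295NL on the same strand shares 198 and was at most 0.261 TPM. The labels do not say if counting used the strand.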

How the data were processed

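RNA of 12 PC9 samples was extracted with NucleoZOL and made into Illumina libraries, per the labels' protocols. Reads were aligned with STAR 2.7.8a to GRCh38 (hg38), per the submitters' processing notes. The quantifier, annotation release and strand setting were not stated there or in the labels. TPM values were deposited by the authors for 30225 genes. Each library summed to 1000000 TPM, so depth is unknown and no counting interval is given.

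The 15721 genes that reached 1 TPM in 3 or more libraries were fitted as log2(TPM + 1) in limma 3.58.1 (R 4.3.3), with 4 group means over 12 libraries (8 residual degrees of freedom) and moderated two-sided tests with an intensity trend. P was adjusted by Benjamini-Hochberg over all tested genes with 0.05 as the threshold. With 3 libraries against 3, the smallest p of a permutation test would be 0.1. The code of the fit was run on simulated data with independent noise and no shift of the median gene. These data do hold such a shift, so that run says nothing of how the calls depend on scaling. Fold changes are ratios of mean TPM. End positions are 1 less than the table's stop.

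The members and lists were chosen with earlier results of these data known. Besides the 6 members and AGR2, up to 4 genes per list (2 between controls) are named by the largest change among those past the threshold, where the higher group averaged 5 TPM or more and libraries did not overlap, together with the 3 nearest profiles of members ranging by at least 1. Other named list genes are those not tested or listed, and MMP7, lower between controls and named after its values were seen. Values of 1 listed gene and of 1 marker are not reported here. The alternatives were other pseudocounts, filters, scalings, library subsets, weights, shrinkage and a replicate block. After the data were seen, removal of library trends on the length and GC content of the longest GENCODE 29 transcript (in 20 bins of each, 84.0% of gene IDs matched) and leaving out both libraries lowest in long transcripts of their groups were added. Python 3.11.15, numpy 2.4.6, pandas 2.3.3 and matplotlib 3.10.9 were used.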

Additional observations from a re-analysis of the deposited data

How the results depend on the processing

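PLAU and PLAT kept their direction and passed in every alternative run for the 3 comparisons and for the difference of effects, as did PLAUR and TIMP3 except in the knockdown. PLAUR with knockdown (0.17 as deposited) was -0.29 after median-ratio rescaling, -0.053 (not passed) after rescaling to the sum of nuclear protein-coding genes, -0.26 after quantile normalisation, 0.17 (not passed) with the 6 compared libraries alone and 0.030 (not passed) with length and GC trends removed. TIMP3 with knockdown (0.48) was 0.0021 with median-ratio rescaling, 0.052 with quantile normalisation and 0.017 with trends removed, and passed in none of these. TIMP2 with knockdown (-0.088) passed as lower with median-ratio rescaling (-0.58), the coding sum (-0.33), quantile normalisation (-0.46), library weights (-0.14), trends removed (-0.49) and without replicate 1 of the 24 h controls and of the overexpressing cells (-0.15). Lower members in the knockdown, 0 as deposited, therefore numbered 2 with median-ratio rescaling and quantile normalisation and 1 with the coding sum, weights, trends removed or without those 2 libraries, and higher members, 4 as deposited, numbered 2 with median-ratio rescaling, quantile normalisation or trends removed. With overexpression TIMP1 passed with library weights (0.30), and TIMP2 (-0.0068) turned to 0.066 with weights and 0.062 without those 2 libraries, unpassed. TIMP1 with knockdown (-0.019) was 0.14, unpassed, without them. TIMP1 between controls (0.46, not passed) passed at 0.46 with genes of at least 5 TPM, the replicate block or 6 libraries alone, at 0.47 with weights and at 0.61 without those 2 libraries. The difference of effects passed for TIMP1 with median-ratio rescaling (0.86), the coding sum (0.62), quantile normalisation (0.74) and trends removed (0.52). For TIMP2 it passed with median-ratio rescaling (0.53), quantile normalisation (0.39), weights (0.21), trends removed (0.47) and without those 2 libraries (0.21). Members with a positive difference, 2 as deposited, numbered 4 with median-ratio rescaling, quantile normalisation and trends removed. The cause of these changes was not tested.

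Leaving out each library in turn gave PLAU -1.39 to -1.35 with overexpression and 1.08 to 1.14 with knockdown, PLAT 1.27 to 1.34 and 0.70 to 0.73, and TIMP3 1.69 to 1.76 and 0.45 to 0.50. PLAUR gave -0.62 to -0.58 with overexpression and 0.12 to 0.21 with knockdown, where it did not pass without replicate 2 of the 24 h controls (adjusted p = 0.0991 by limma), knockdown replicate 1 (0.101) or 3 (0.0795). TIMP1 gave 0.19 to 0.56 with overexpression, passing without replicate 2 (adjusted p = 0.0309 by limma), -0.18 to 0.14 with knockdown and 0.29 to 0.61 between controls, passing without replicate 1 of the 24 h controls (0.0215) or overexpressing replicate 1 (0.0179) or 2 (0.0369). TIMP2 gave -0.042 to 0.062 and -0.15 to -0.046, and 0.039 to 0.15 for the difference of effects. Higher members numbered 3 to 4 with knockdown, 2 to 3 with overexpression and 5 to 6 between controls.

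Over all genes the knockdown gave 8432 higher and 1876 lower, but 4620 and 4699 with median-ratio rescaling, 4967 and 4399 with quantile normalisation, 4739 and 4766 with trends removed and 2918 lower with the coding sum. Between controls 8321 higher and 1273 lower became 4380 and 4132 with median-ratio rescaling, 4704 and 3851 with quantile normalisation, 4197 and 4010 with trends removed, and 5131 and 2656 with the coding sum. The difference of effects was positive in 3164 genes, 5059 with median-ratio rescaling and 4974 with trends removed. Testing only genes of at least 5 TPM gave 4931 higher with knockdown, 2616 higher and 2481 lower with overexpression, 4965 higher between controls, and 1833 positive and 4293 negative differences of effects (7162 negative as reported). Testing all genes gave 7120 higher with overexpression and 4788 positive differences. These counts follow the number of genes tested. Deviations correlated at -0.159 to 0.062 in same-numbered libraries and -0.138 to 0.135 in others. With 3 per group this cannot decide if numbers pair them. The replicate block gave 8476 higher and 1904 lower genes in the knockdown and 4759 and 4056 with overexpression, where 4698 and 4005 passed without it. SPINT2 with knockdown reversed to -0.065 with median-ratio rescaling, and SERPINE2 between controls to -0.065, -0.077 with quantile normalisation and -0.17 with trends removed, each unpassed. With 0.1 TPM added, the log2 PLAT/PLAU ratio difference with knockdown was -0.0075, against 0.066 without it.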
